A study of Mus musculus with 24 samples.

Results

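The astrocyte marker genes are a list of 32 genes that mark astrocytes in the mouse brain. The list was drawn up by symbol from known markers of this cell type. Each symbol was matched to its Ensembl identifier in the annotation, and all 32 were found among the 36605 genes of the count table. All 32 also passed the filter on low counts, which kept 19742 genes, so no member was lost.

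Astrocytes are the star-shaped glial cells that tile the brain. They take up glutamate released at synapses and turn it into glutamine, buffer potassium and water around blood vessels through their endfeet, are joined to each other by gap junctions, and secrete lipoproteins and other factors that neurons use. Egr1 is an immediate early transcription factor best known in neurons. Nestin is made by the neural progenitors that give rise to neurons, astrocytes and oligodendrocytes, so a Cre recombinase driven by the rat Nestin promoter and enhancer also recombines floxed alleles in astrocytes.

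RNA-seq was run on the whole hippocampus of 24 adult mice, 6 of each of 4 genotypes, with 3 females and 3 males in each. Wild type mice (Egr1wtNesCre-) had neither modification, floxed control mice (Egr1fNesCre-) carried the floxed Egr1 allele (Egr1_tm1a_A04) without Cre, Cre control mice (Egr1wtNesCre+) carried the Nestin-Cre transgene B6.Cg-Tg(Nes-Cre)1Kln/J with intact Egr1, and Egr1cKO mice (Egr1fNesCre+) carried both. The labels name no treatment, and each library came from 1 mouse. The labels give the numbers of the mice, and those of the 12 floxed mice form one range and those of the 12 mice without the allele another, so the allele and the series of mice cannot be told apart.

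The total count per mouse ran from 18025168 to 34955004 with a median of 22743950.5. Levels are given as CPM, counts relative to the library size after TMM scaling, and differences are log2 fold changes with their standard error (SE) from a quasi-likelihood model in edgeR over the 24 mice, with p-values adjusted over all 19742 genes by the Benjamini-Hochberg method. A gene was called when it changed by at least 1.2-fold at an adjusted p of at most 0.05. The targeted gene followed the labels: Egr1 lay between 4.85 and 10.2 CPM in Egr1cKO and between 47.6 and 149 CPM in the other 18 mice. The labels name the cell type as endocrine, but the pituitary hormone gene Prl was highest at 0.712 CPM and Gh at 0.329 CPM, whereas the vesicular glutamate transporter gene Slc17a7 was never below 1220 CPM and Prox1, which marks dentate granule cells, never below 58.2 CPM. Choroid plexus RNA was high in some libraries, with Ttr above 100 CPM in 5 mice. Since whole tissue was measured, fewer astrocytes and less RNA per astrocyte cannot be told apart in any value that follows.

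Only a short stretch of promoter could be read beside these genes. RefSeq windows on GRCm38.p6, from 250 bases before to 50 bases after the annotated start, were at hand for 27 of the 32 genes. The letters GCGTGGGCG and GCGGGGGCG, which are core forms of the motif that EGR1 binds, were searched on both strands. They stood in the windows of 1 of the 27 genes, Fgfr3, or 3.70%, and in those of 3.93% of all 27025 genes. The letters TGCACNC and TGCGCNC, the core of the metal response element through which zinc induces metallothioneins, stood in those of 8 of the 27, or 29.6%, and in those of 28.2% of all genes. The upstream stretch of Fgfr3 is shown because it holds that single EGR match, and those of the neighbouring metallothionein genes Mt1 and Mt2 because both hold metal response matches although their counts were far apart. They are chr5:33721474-33721673, chr8:94178882-94179081 and chr8:94172418-94172617, all on the plus strand, and capitals mark the matches.
Fgfr3: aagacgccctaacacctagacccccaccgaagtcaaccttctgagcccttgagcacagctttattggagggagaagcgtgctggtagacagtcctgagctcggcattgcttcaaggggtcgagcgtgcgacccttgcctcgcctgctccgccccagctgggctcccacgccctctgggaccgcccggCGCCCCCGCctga
Mt1: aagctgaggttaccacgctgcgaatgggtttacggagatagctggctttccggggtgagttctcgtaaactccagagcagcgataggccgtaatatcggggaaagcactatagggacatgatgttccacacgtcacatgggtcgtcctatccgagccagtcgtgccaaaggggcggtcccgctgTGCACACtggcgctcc
Mt2: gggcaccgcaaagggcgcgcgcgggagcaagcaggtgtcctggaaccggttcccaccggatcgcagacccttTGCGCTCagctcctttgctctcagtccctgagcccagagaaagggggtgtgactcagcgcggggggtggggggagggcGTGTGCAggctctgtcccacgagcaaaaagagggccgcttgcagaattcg
A match of letters is a description of the sequence and not a binding site, and a window without a match says nothing about sites elsewhere.

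The abundance of the members differed widely. Per kilobase of exon, Apoe, the main lipid carrier of the brain, had the highest mean level at 681 CPM per kb, followed by the glutamine synthetase gene Glul at 355, the secreted chaperone gene Clu at 244 and the glutamate transporter gene Slc1a2 at 235 CPM per kb. The lowest were the growth factor receptor gene Fgfr3 at 16.5, the glycogen-targeting phosphatase subunit gene Ppp1r3c at 15.4, the angiotensinogen gene Agt at 12.5, the folate enzyme gene Aldh1l1 at 8.86, the transcription factor gene Sox9 at 7.88 and the cystathionine synthase gene Cbs at 4.61 CPM per kb. Mt2 was left out of this order. It was counted at only 2 to 27 reads per mouse, while its neighbour Mt1 was counted at 3553 to 7216 reads. The libraries were not stranded, and 73.5% of the exonic length of Mt2 is shared with Gm45774, an antisense gene on the opposite strand that itself held few reads, so the count of Mt2 is uncertain.

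The median member varied less between mice of 1 group than the median gene. The median SD within the 8 groups of genotype and sex was 0.14 on the log2 scale for the 32 genes and 0.25 for all genes tested. The 2 sets were not matched for abundance. Mt2, Agt, Sox9, Fabp7 and Slc4a4 had a larger SD within groups than the median of all genes. Over all 24 mice the sodium pump subunit gene Atp1b2 was steadiest. It ran from 396 to 481 CPM, with an SD of 0.08 on the log2 scale. Clu ran from 739 to 956 CPM, with an SD of 0.08, and the endfoot adhesion gene Hepacam from 83.0 to 105 CPM, with an SD of 0.09. At the other end stood Mt2 with an SD of 0.69, of which counting error alone gives about 0.40, then the water channel gene Aqp4 with 0.39 and the brain lipid-binding protein gene Fabp7 with 0.39.

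The comparison of Egr1cKO with the floxed control asks what loss of Egr1 together with Cre does on the same allele. Aqp4, which encodes the water channel that astrocytes pack into their perivascular endfeet, was the single member called, and it was higher in Egr1cKO. Across all genes 0.0304% were called in this comparison, 4 of them higher and 2 lower, and Aqp4 was one of those 4. Aqp4 measured 196, 244 and 264 CPM in the lowest, median and highest Egr1cKO mouse and 101, 133 and 169 CPM in the floxed control. The 2 groups did not overlap. The log2 fold change was 0.82 (SE 0.11, n = 6 and 6, adjusted p = 0.000523, edgeR), or 1.76-fold. Aqp4 lies on the same chromosome as Egr1, 18, at a distance of 19.4 Mb.

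**Figure D1:**
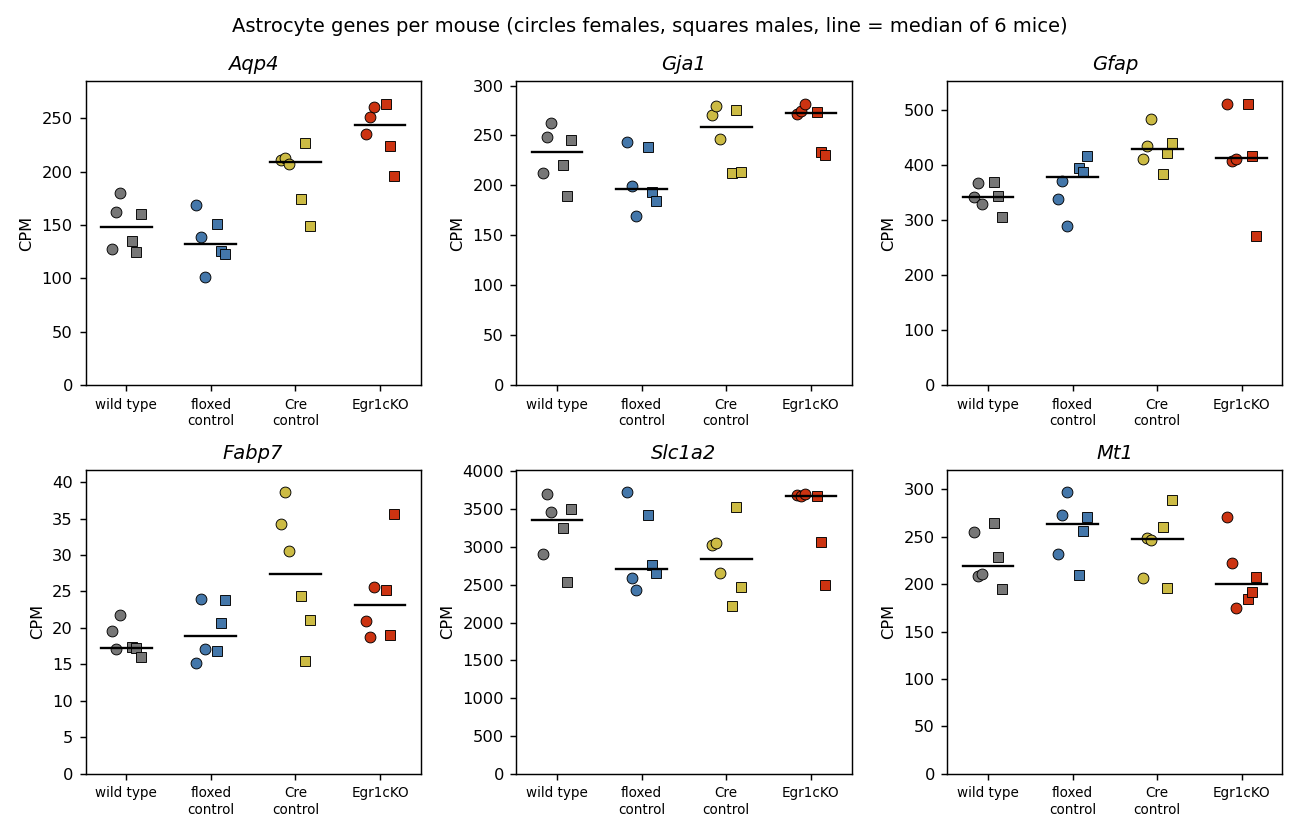
CPM of 6 astrocyte genes (vertical axes, each from 0) in each of the 24 mice by genotype, with females as circles, males as squares and the median of 6 mice as a line. All 6 Egr1cKO mice have more Aqp4 than every floxed control mouse and every wild type mouse, while the Cre control mice lie between 149 and 227 CPM and overlap with Egr1cKO.

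The other control groups showed where Aqp4 stood without the loss of Egr1. Cre control mice held 149, 209 and 227 CPM as lowest, median and highest, and wild type mice 124, 148 and 180 CPM. Egr1cKO thus lay above wild type with no overlap but overlapped with the Cre control. Aqp4 differed between Egr1cKO and the Cre control by 0.28 (SE 0.11), which was not called (adjusted p = 0.247, edgeR), and between the Cre control and wild type by 0.41 (SE 0.11), which was not called either (adjusted p = 0.659, edgeR). Between the floxed control and wild type the log2 fold change was -0.13 (SE 0.11, adjusted p = 0.757, edgeR). The floxP by Cre interaction, which asks whether Cre changed Aqp4 more on the floxed allele than on the wild type allele, was 0.41 (SE 0.15, unadjusted p = 0.0124, adjusted p = 0.175, edgeR), so a difference between the 2 effects of Cre was not shown. Against the other 18 mice together, Egr1cKO was higher by 0.59 (SE 0.086, adjusted p = 0.00216, edgeR).

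Both sexes showed the higher level of Aqp4 in Egr1cKO. The 3 females ran from 236 to 261 CPM in Egr1cKO, from 207 to 212 in the Cre control, from 101 to 169 in the floxed control and from 128 to 180 CPM in wild type. The 3 males ran from 196 to 264, 149 to 227, 123 to 151 and 124 to 161 CPM in the same order. Among females, Egr1cKO lay above all 3 control groups without overlap, and among males it overlapped with the Cre control only. Without the 5 mice with Ttr above 100 CPM the log2 fold change of Aqp4 against the floxed control was 0.80 (adjusted p = 0.036, edgeR), and over the 24 fits that each left out 1 mouse it ran from 0.74 to 0.88.

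The gap junction gene Gja1, which encodes connexin 43, was the member whose values went most closely with Aqp4. It measured 231, 272 and 282 CPM in the lowest, median and highest Egr1cKO mouse, 170, 197 and 244 CPM in the floxed control, 212, 258 and 280 CPM in the Cre control and 189, 233 and 262 CPM in wild type. Egr1cKO differed from the floxed control by 0.35 on the log2 scale (SE 0.09, unadjusted p = 0.000676), but with overlap of the groups and an adjusted p of 0.220 (edgeR) it was not called. Pearson's r between Gja1 and Aqp4 over the 24 mice was 0.89 as a description. The second connexin gene of astrocytes, Gjb6 (connexin 30), did not follow: it measured 39.5, 55.0 and 63.5 CPM in Egr1cKO, 40.9, 54.9 and 76.3 in the floxed control, 42.3, 47.5 and 67.4 in the Cre control and 34.9, 48.3 and 57.3 CPM in wild type, and its log2 fold change against the floxed control was -0.06.

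At an unadjusted p under 0.05, 6 of the 32 genes stood out in the comparison of Egr1cKO with the floxed control, or 18.8%, against 15.4% of all genes. Aqp4 and Gja1 were higher in Egr1cKO. The 4 with lower values were Mt1, the glycolytic enzyme gene Aldoc (log2 fold change -0.19), Cbs (-0.19) and Pla2g7 (-0.15), which encodes the platelet-activating factor hydrolase. The share was close to the background, and of the 32 log2 fold changes 15 were above 0 and 17 below, with a median of -0.02 beside -0.01 for all genes.

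**Figure D2:**
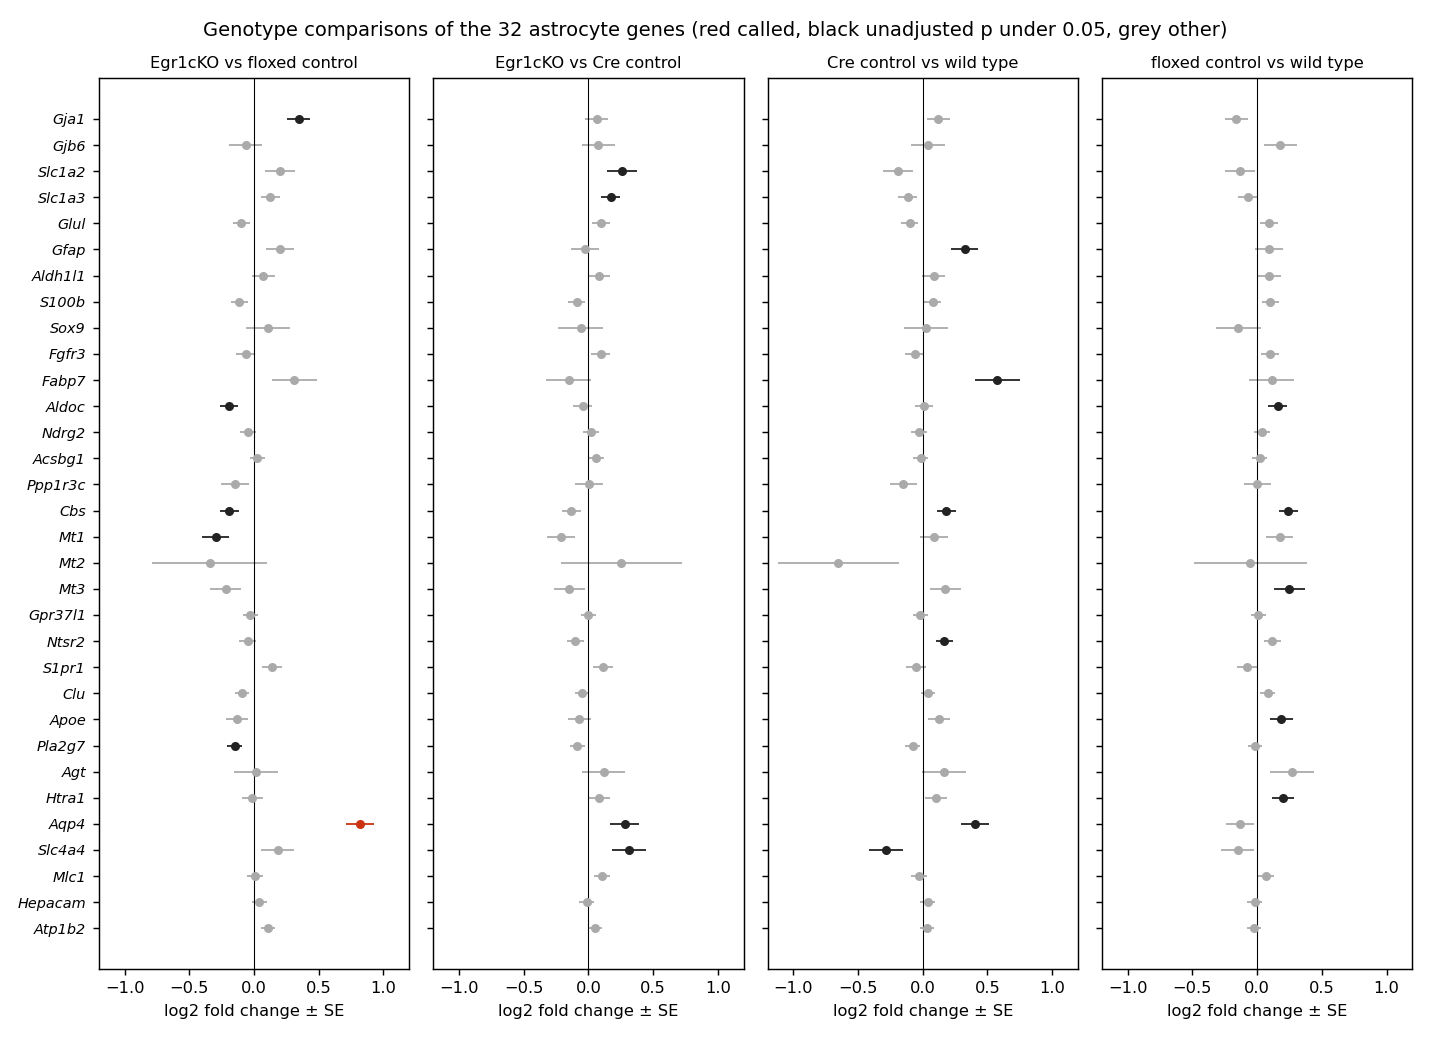
Log2 fold change with its SE (horizontal axes) of each of the 32 astrocyte genes (rows, grouped by role) in 4 comparisons of 6 against 6 mice, red where called, black at an unadjusted p under 0.05 and grey otherwise. Aqp4 against the floxed control, at 0.82, is the single red point.

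The other 4 genes of water, ion and endfoot handling also had values above 0 in the same comparison, but none was called. The sodium bicarbonate cotransporter gene Slc4a4 had a log2 fold change of 0.18 (SE 0.13, medians 261 and 195 CPM), Atp1b2 of 0.11 (SE 0.05), and the endfoot protein genes Mlc1 and Hepacam of 0.01 and 0.04. Hepacam measured 87.4, 93.6 and 100 CPM in Egr1cKO and 83.0, 91.1 and 98.4 CPM in the floxed control, and 84.2, 95.5 and 105 CPM in the Cre control and 87.8, 89.9 and 99.2 CPM in wild type. Atp1b2 measured 441, 457 and 474 CPM in Egr1cKO, 396, 425 and 461 in the floxed control, 408, 434 and 481 in the Cre control and 407, 431 and 462 CPM in wild type. In both genes all 4 groups overlapped.

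Glutamate handling was measured by Slc1a2 (GLT-1) and Slc1a3 (GLAST), the main glutamate transporters of astrocytes, and by Glul. Slc1a2 reached 2503, 3675 and 3708 CPM in the lowest, median and highest Egr1cKO mouse, 2436, 2708 and 3725 in the floxed control, 2221, 2841 and 3531 in the Cre control and 2532, 3359 and 3697 CPM in wild type. Slc1a3 followed with 600, 716 and 764 CPM in Egr1cKO, 540, 620 and 721 in the floxed control, 564, 607 and 684 in the Cre control and 575, 683 and 716 CPM in wild type. In both genes the medians of Egr1cKO and wild type lay above those of the floxed control and the Cre control, and all groups overlapped. Glul measured 972, 1166 and 1453 CPM in Egr1cKO, 1215, 1257 and 1327 in the floxed control, 919, 1154 and 1193 in the Cre control and 1087, 1167 and 1311 CPM in wild type. Egr1cKO spanned the whole range of its 3 control groups except their lowest value for this gene. None of the 3 genes was called in any comparison.

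The comparison of Egr1cKO with the Cre control asks what loss of Egr1 adds where Cre is present in both groups. No member was called, beside 0.00507% of all genes, which was a single gene. At an unadjusted p under 0.05 stood 4 of the 32, or 12.5%, against 15.3% of all genes. All 4 were higher in Egr1cKO, namely Slc4a4 (log2 fold change 0.31), Aqp4 (0.28), Slc1a2 (0.26) and Slc1a3 (0.17). Of the 32 values 19 were above 0, with a median of 0.03 beside -0.02 for all genes. Without male Cre control replicate 2 the fit called 983 genes in all, among them 1 member, Slc4a4, at 0.45 (adjusted p = 0.0285, edgeR).

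The comparison of the Cre control with wild type asks what the Nestin-Cre transgene does alone. No member and no other gene was called, which is 0%. At an unadjusted p under 0.05 stood 6 of the 32, or 18.8%, against 5.92% of all genes. Higher in the Cre control were Fabp7, Aqp4, Gfap, Cbs (0.18) and the neurotensin receptor gene Ntsr2 (0.17), and lower was Slc4a4 (-0.29). Of the 32 values 19 were above 0, with a median of 0.04 beside 0.01 for all genes.

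Gfap, the intermediate filament protein that rises in reactive astrocytes, measured 385, 428 and 483 CPM in the lowest, median and highest Cre control mouse and 306, 343 and 370 CPM in wild type. These 2 groups did not overlap, and the log2 fold change was 0.32 (SE 0.11, unadjusted p = 0.00591, adjusted p = 0.780, edgeR). Gfap measured 271, 413 and 512 CPM in Egr1cKO and 289, 379 and 416 CPM in the floxed control, with the lowest of the Egr1cKO mice below every other mouse of the study. Fabp7, which marks radial glia and immature astrocytes, measured 15.5, 27.4 and 38.6 CPM in the Cre control, 16.1, 17.3 and 21.8 in wild type, 18.8, 23.1 and 35.6 in Egr1cKO and 15.2, 18.9 and 23.9 CPM in the floxed control. Its log2 fold change between the Cre control and wild type was 0.58 (SE 0.17, unadjusted p = 0.00265, adjusted p = 0.756, edgeR). The 3 female Cre control mice held the high values, between 30.5 and 38.6 CPM, while the 3 males ran from 15.5 to 24.4 CPM.

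The genes of reactive astrocytes beyond Gfap gave no call. Of the 12 listed 9 were tested, among them Vim and Serpina3n, and 1 of the 9 had an unadjusted p under 0.05 between the Cre control and wild type, with 3 of the 9 values above 0 and a median of -0.02. Choroid plexus genes moved with the same comparison, with all 9 of 9 above 0 and a median log2 fold change of 2.47, and their summed level ran from 37.2 to 49.4 CPM in wild type and from 58.0 to 2071 CPM in the Cre control. Without the mice with Ttr above 100 CPM the log2 fold change of Aqp4 between the Cre control and wild type was 0.47 (adjusted p = 0.697, edgeR).

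The comparison of the floxed control with wild type asks what the floxed allele does without Cre. No member and no other gene was called, again 0%, and 5 of the 32, or 15.6%, had an unadjusted p under 0.05, against 6.70% of all genes. All 5 were higher in the floxed control: Cbs (0.24), Mt3 (0.25), Htra1 (0.20), Apoe (0.19) and Aldoc (0.16). Cbs, the first enzyme of transsulphuration, measured 33.1, 37.5 and 40.9 CPM in the floxed control and 29.2, 32.3 and 33.4 CPM in wild type, which touched only at the edge of each range. It measured 29.0, 36.7 and 40.4 CPM in the Cre control and 31.2, 33.0 and 33.8 CPM in Egr1cKO, so both single modifications had a higher median than either wild type or Egr1cKO.

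The interaction of floxP and Cre gave the largest share of members at an unadjusted p under 0.05, 9 of 32 or 28.1%, against 18.4% of all genes. None was called, beside 0.00507% of all genes. Slc4a4 (0.47), Aqp4 (0.41), Slc1a2 (0.39) and Slc1a3 (0.24) had positive values, and Mt3 (-0.39), Mt1 (-0.38), Cbs (-0.37), Apoe (-0.26) and Ntsr2 (-0.22) had negative ones. The smallest p was that of Cbs (SE 0.10, unadjusted p = 0.0011, adjusted p = 0.159, edgeR). Without the mice with Ttr above 100 CPM, 1 of the 32 had an unadjusted p under 0.05 in place of 9. The share over all genes in that fit is not given here. A single library decided the count for all genes: without male Cre control replicate 2 the fit called 1438 genes in place of 1, and 4 of these were members, namely Aqp4, Slc4a4 (0.60), Slc1a2 (0.50) and Cbs (-0.37).

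Egr1cKO was also set against the other 18 mice together. Aqp4 was again the single member called, beside 0.0304% of all genes, and 4 of the 32, or 12.5%, had an unadjusted p under 0.05, against 14.9% of all genes. These were Aqp4, Gja1 (0.20), Mt1 (-0.21) and Pla2g7 (-0.13). Pla2g7 measured 93.8, 106 and 114 CPM in Egr1cKO, 103, 119 and 128 in the floxed control, 106, 111 and 125 in the Cre control and 109, 118 and 125 CPM in wild type, with an adjusted p of 0.220 (edgeR) against the 18. Without male Egr1cKO replicate 3, the mouse with the lowest Gfap in the study, the fit called 253 genes in place of 6, and 2 of these were members, Aqp4 and Gfap (0.27, adjusted p = 0.0457, edgeR).

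The metallothioneins bind zinc and copper and are induced by metals and by glucocorticoids. Mt1 measured 175, 200 and 271 CPM in Egr1cKO, 210, 263 and 297 in the floxed control, 196, 248 and 288 in the Cre control and 195, 220 and 264 CPM in wild type. Egr1cKO differed from the floxed control by -0.30 (SE 0.11, unadjusted p = 0.00954, adjusted p = 0.238, edgeR). Mt3, the form found mainly in brain, measured 174, 197 and 284 CPM in Egr1cKO, 202, 252 and 298 in the floxed control, 178, 250 and 272 in the Cre control and 185, 205 and 244 CPM in wild type. Mt1 and Mt3 had the same order of medians, with the floxed control highest and Egr1cKO lowest. Mt2 lay at 0.280, 0.446 and 0.914 CPM in Egr1cKO, 0.340, 0.460 and 1.48 in the floxed control, 0.0959, 0.351 and 0.864 in the Cre control and 0.317, 0.639 and 0.998 CPM in wild type, with the limits given above.

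Among the secreted proteins, Apoe measured 1245, 1360 and 1624 CPM in Egr1cKO, 1319, 1558 and 1829 in the floxed control, 1175, 1540 and 1630 in the Cre control and 1232, 1375 and 1469 CPM in wild type. Clu measured 739, 824 and 872 CPM in Egr1cKO, 769, 884 and 956 in the floxed control, 789, 843 and 896 in the Cre control and 794, 826 and 839 CPM in wild type. All groups overlapped for both genes. Agt ran from 13.9 to 38.9 CPM and the serine protease gene Htra1 from 134 to 205 CPM over all mice.

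The identity genes other than Gfap and Fabp7 had no unadjusted p under 0.05 in any comparison of genotypes (edgeR). Sox9 varied widely between mice, with an SD of 0.32 on the log2 scale. Aldh1l1, the pan-astrocyte marker, measured 36.3, 42.9 and 48.4 CPM in Egr1cKO, 34.1, 40.8 and 44.5 in the floxed control, 31.1, 41.3 and 52.5 in the Cre control and 30.8, 39.3 and 40.9 CPM in wild type. The calcium-binding protein gene S100b ran from 72.4 to 96.7 CPM, Sox9 from 20.5 to 46.5 and Fgfr3 from 97.8 to 136 CPM over all mice. Fgfr3, the gene with the EGR match printed above, differed between Egr1cKO and the floxed control by -0.07 (SE 0.07) and between Egr1cKO and the Cre control by 0.10 (SE 0.07), neither of which was called. Of the metabolic genes, Ndrg2 ran from 507 to 705 CPM, the fatty acid ligase gene Acsbg1 from 123 to 164 CPM and Ppp1r3c from 31.0 to 55.0 CPM. Of the receptor genes, the G protein-coupled receptor gene Gpr37l1 ran from 178 to 230 CPM, Ntsr2 from 133 to 183 CPM and the sphingosine phosphate receptor gene S1pr1 from 102 to 147 CPM.

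Sex gave no change as large as that of Aqp4, but its differences were more even in direction. Between females and males, over all genotypes, 30 of the 32 members had a positive log2 fold change, with a median of 0.09 beside 0.00 for all genes, of which 49.4% were above 0. None was called, beside 0.0658% of all genes, and 7 of the 32, or 21.9%, had an unadjusted p under 0.05, all higher in females, against 5.79% of all genes. Aldh1l1 had the smallest unadjusted p (log2 fold change 0.20, SE 0.06, unadjusted p = 0.00305, adjusted p = 0.692, edgeR). It was followed by Gjb6 (0.26, SE 0.09, adjusted p = 0.719, edgeR) and Glul (0.13, SE 0.05, adjusted p = 0.735, edgeR). A list of 30 other astrocyte genes, such as the potassium channel gene Kcnj10, gave 24 of 30 above 0 with a median of 0.10. Other lists had medians as high or higher, with 5 of 5 oligodendrocyte precursor genes above 0 (median 0.13), 4 of 4 ependymal genes (0.21) and 7 of 8 glucocorticoid response genes (0.14), so the direction was not particular to astrocyte genes. The 8 genes of oligodendrocytes gave a median of 0.04, the 8 of neurons 0.00 and the 8 of microglia -0.03, and all 9 choroid plexus genes were below 0 (median -0.58).

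**Figure D3:**
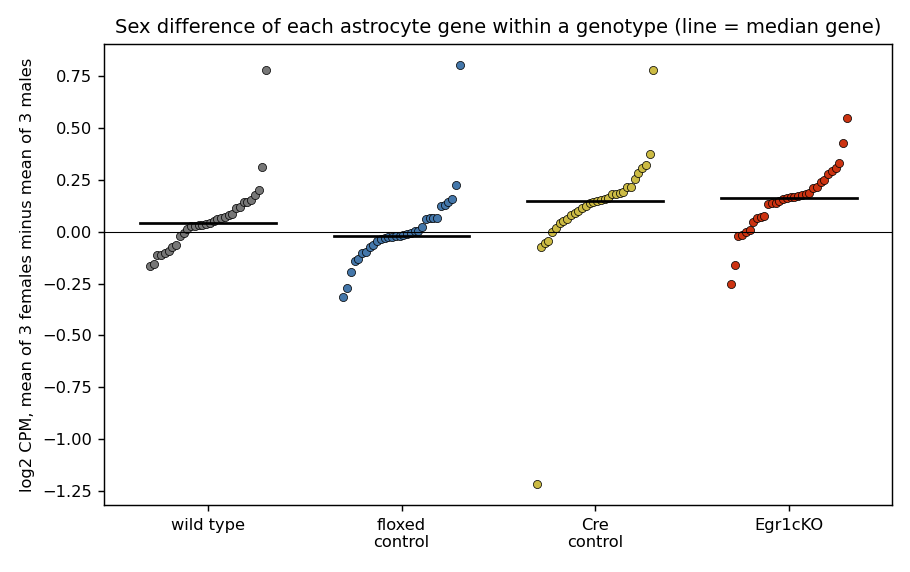
Difference in mean log2 CPM between 3 females and 3 males (vertical axis) for each of the 32 astrocyte genes (points, sorted) within each genotype, with the median gene as a line. Medians are 0.04 in wild type, -0.02 in the floxed control, 0.15 in the Cre control and 0.17 in Egr1cKO.

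Within genotypes the even difference was not the same everywhere. Of the 32 genes, 28 were higher in females in the Cre control and 27 in Egr1cKO, but 22 in wild type and 13 in the floxed control. Members share mice and are not independent, so these counts carry no test. For single genes, the change of the sex difference in Egr1cKO against the mean of the other genotypes had an unadjusted p under 0.05 in 2 of the 32, or 6.25%, against 6.09% of all genes, and none was called, beside 0.00507% of all genes. These were Fabp7 (-0.57) and Htra1 (0.25).

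The members' shared variation across mice was read from their correlations in log2 CPM. The median Pearson r over the 496 pairs of members was 0.20 (jackknife SE over mice 0.07), and the median over all pairs of genes was 0.00. Of the 496 pairs 351 were above 0, 100 were above 0.5 and 16 were below -0.5. After removal of the 8 group means the median was 0.17, within the 12 floxed mice 0.23 and within the 12 others 0.24. The list did not vary as 1 block, however. The 2 first principal components held similar shares of the variance, 29.4% and 26.5%.

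**Figure D4:**
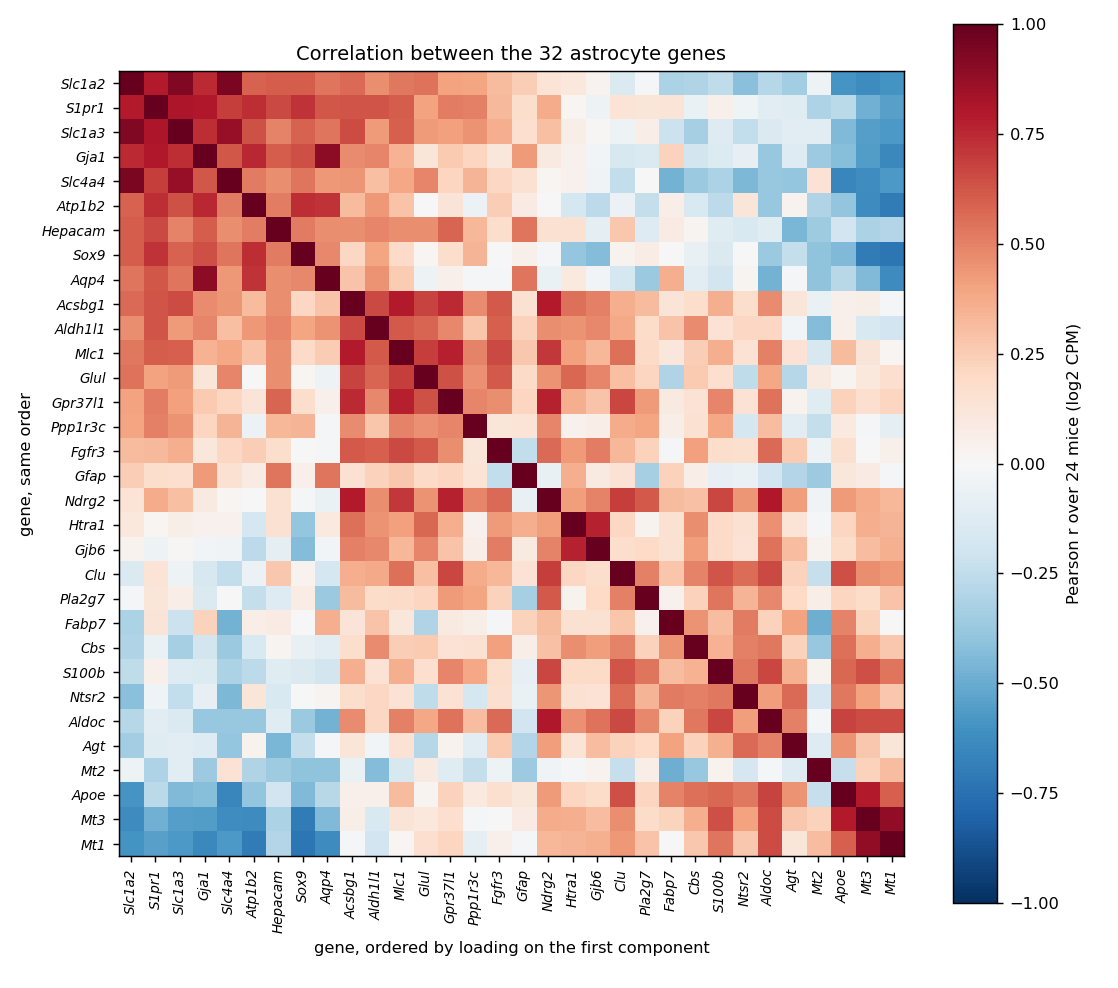
Pearson r over 24 mice in log2 CPM (colour, from -1 to 1) for each pair of the 32 astrocyte genes, ordered on both axes by loading on the first principal component. A block from Slc1a2 to Aqp4 at the top left runs against Apoe, Mt3 and Mt1 at the bottom right, and the lowest r is -0.72 between Sox9 and Mt1.

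The first component set Slc1a2, S1pr1, Slc1a3, Gja1 and Slc4a4, which had the highest loadings, against Mt1, Mt3 and Apoe, which had the lowest. Atp1b2, Hepacam, Sox9 and Aqp4 came next at the upper end. The highest r was 0.94 between Slc1a2 and Slc4a4, followed by 0.93 between Slc1a2 and Slc1a3, 0.89 between Aqp4 and Gja1 and 0.89 between Mt1 and Mt3. Negative pairs joined the 2 ends, with -0.72 between Sox9 and Mt1 and -0.70 between Atp1b2 and Mt1. In Egr1cKO the median score was 3.30, in wild type 0.76, in the Cre control 0.02 and in the floxed control -1.93, and all 4 groups overlapped.

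This component went with the length of transcripts, though not for every gene. A length index was computed for each mouse from other genes only: the median log2 deviation of long protein-coding genes (over 6781 bases of exon) minus that of short ones (under 2785 bases). It ran from -0.31 to 0.25 over the mice. The r of a member with this index was 0.89 for Slc4a4, 0.88 for Slc1a2, 0.80 for Slc1a3 and 0.71 for Gja1, and it was -0.86 for Mt3, -0.82 for Apoe and -0.79 for Mt1. Slc1a2 has 13133 bases of exon and Mt3 has 1066. Exceptions were Cbs with 7485 bases and r = -0.43, Fgfr3 with 7158 bases and r = 0.13, and S1pr1 with 3046 bases and r = 0.64. Across the 32 members, r between the log2 exonic length and the r with the index was 0.67, and 0.74 over the 31 without Mt2. The score on the first component had an r of 0.82 with the length index (Spearman's rho 0.83), and the index one of 0.88 with the first component of all genes. These are descriptions over the same 24 libraries, and they carry no test.

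**Figure D5:**
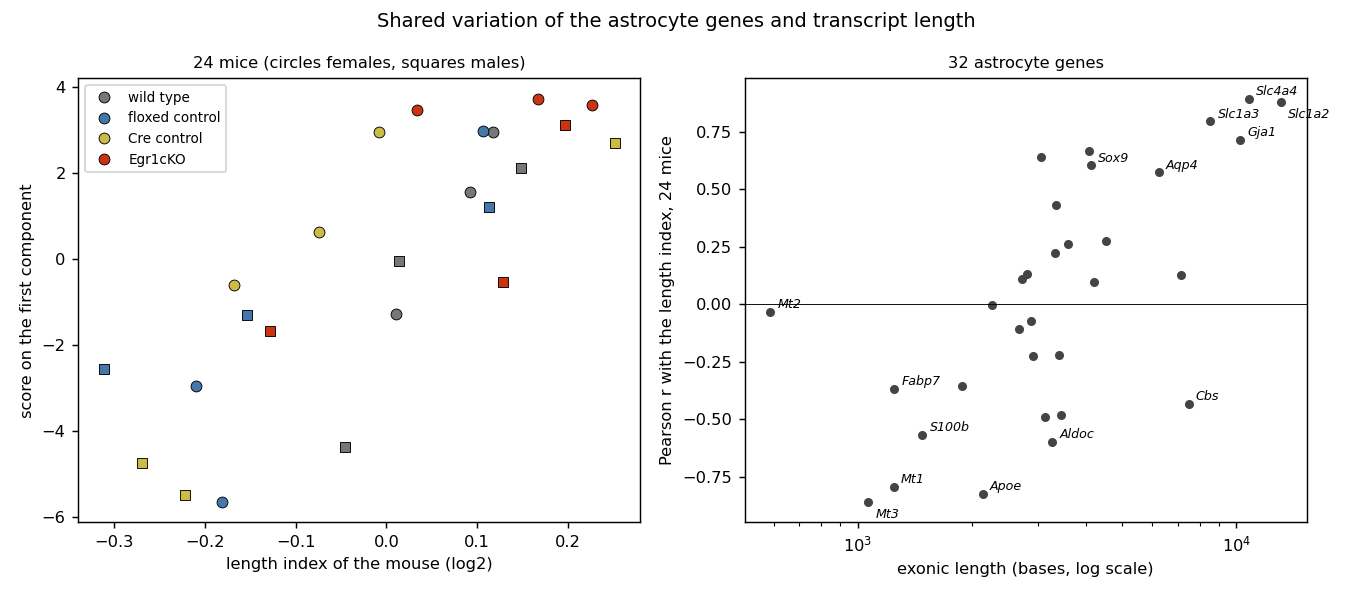
Left, score of each of the 24 mice on the first component of the astrocyte genes (vertical axis) against its length index in log2 (horizontal axis), with r = 0.82. Right, Pearson r of each of the 32 genes with the length index (vertical axis) against exonic length in bases (horizontal axis, log scale), from -0.86 for Mt3 to 0.89 for Slc4a4.

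The length index differed in its median between genotypes, being 0.15 in Egr1cKO, 0.05 in wild type, -0.12 in the Cre control and -0.17 in the floxed control, with overlap. A fit with the index as a covariate was therefore added after the data had been seen. In it Aqp4 stayed called between Egr1cKO and the floxed control, as 1 of 4 genes called in all. Its log2 fold change was smaller, 0.60 (adjusted p = 0.00103, edgeR), while that of Gja1 fell to 0.17 and that of Mt1 to -0.08. Aqp4 was then called between the Cre control and wild type at 0.55 (adjusted p = 0.00293, edgeR), and it was the only gene called there. It differed between Egr1cKO and the Cre control by 0.09 (adjusted p = 0.857, edgeR). Its interaction was 0.05, and its value between the floxed control and wild type was 0.03, where it had been -0.13. In this fit 1 of the 32 members had an unadjusted p under 0.05 in the interaction, in place of 9. It was 1 in place of 4 between Egr1cKO and the Cre control, and 2 in place of 5 between the floxed control and wild type. It was 11 in place of 7 between females and males, and 8 in place of 2 for the change of the sex difference. The share over all genes in this fit is not given here. Whether the index reflects RNA quality or the tissue was not tested.

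The second component had loadings of 1 sign for 25 of the 32 genes. Its score had an r of -0.48 with the length index and 0.49 with the median of the 30 other astrocyte genes. A second summary was the median deviation of the 32 genes in each mouse. This median ran from -0.16 to 0.17 on the log2 scale, with medians of 0.01 in wild type, 0.03 in the floxed control, 0.00 in the Cre control and 0.02 in Egr1cKO. It was above 0 in 10 of 12 females and 4 of 12 males. It had an r of 0.80 with the median of the 30 other astrocyte genes, 0.26 with that of neuron genes, 0.36 with microglia, 0.04 with oligodendrocytes, -0.05 with endothelial cells and 0.11 with the length index. Among the genes outside the list that went most closely with it over the 24 mice were Nacc2 (r = 0.78), Abhd3 (0.77), Asrgl1 (0.76), Phactr3 (0.76), Sfxn5 (0.75), Apln (0.74), Glud1 (0.74), Cerk (0.73) and Ccdc85c (0.72).

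Relations between members and their partners were tested in 13 pairs by a two-sided permutation test with 100000 resamples over the 24 mice, adjusted over the 13. The pairs were chosen with earlier results of these data known. The adjustment does not cover that choice, so the p-values are not independent support for the relations. Of these, 6 had an adjusted p of at most 0.05 by Pearson's r, all positive. Slc1a2 and Slc1a3 gave r = 0.93 and rho = 0.87 (permutation p = 1e-05 for both, the smallest these resamples can give, adjusted p = 0.00013), and r was 0.92 without the 2 mice farthest from the median of Slc1a2. Apoe and Clu gave r = 0.64 and rho = 0.58 (permutation p = 0.00059 and 0.00315, adjusted p = 0.00383 and 0.0102), with r = 0.54 without the 2 farthest mice. Mt1 and Tsc22d3, a glucocorticoid-induced gene, gave r = 0.59 and rho = 0.65 (permutation p = 0.0022 and 0.00067, adjusted p = 0.00953 and 0.00435), with r = 0.62 without the 2 farthest mice, and r = 0.69 in the floxed and 0.62 in the other mice.

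Glul and Tsc22d3 gave r = 0.58 and rho = 0.61 (permutation p = 0.00306 and 0.0022, adjusted p = 0.00994 and 0.00953), but r was 0.82 in the 12 floxed mice and 0.06 in the 12 others, and 0.14 after removal of the 8 group means, so the relation did not hold in both series. Gfap and Aqp4 gave r = 0.54 and rho = 0.51 (permutation p = 0.00748 and 0.0122, adjusted p = 0.0194 and 0.0265), with 0.58 without the 2 farthest mice but 0.28 after removal of the group means. Mlc1 and Hepacam, whose proteins form a complex in endfeet, gave r = 0.46 and rho = 0.43 (permutation p = 0.0222 and 0.0365, adjusted p = 0.048 and 0.0678). Without the 2 farthest mice r was 0.28 and the pair did not pass (adjusted p = 0.334, permutation test). In the 12 floxed mice r was 0.69 and in the 12 others 0.43. The gap junction pair Gja1 and Gjb6 gave r = -0.03 (adjusted p = 0.976) and Mt1 and Mt2 r = 0.31 (adjusted p = 0.194). After a fit on the length index 8 of the 13 passed by Pearson's r. Mt1 and Mt2 (r = 0.46, adjusted p = 0.0419, but 0.0931 by Spearman's rho) and Aldoc and Glul (r = 0.67, adjusted p = 0.00165) were added to the 6. Aldoc and Glul had passed by rho without that fit (rho = 0.53, adjusted p = 0.0219), but their r was -0.13 after removal of the group means. Within the 12 mice without the allele 1 of the 13 pairs passed, Slc1a2 with Slc1a3. Within the 12 floxed mice Slc1a2 with Slc1a3, Glul with Tsc22d3, Mlc1 with Hepacam, Apoe with Clu and Mt1 with Tsc22d3 passed by Pearson's r. By rho only Glul with Tsc22d3 passed there (adjusted p = 0.00663, permutation test). After removal of the group means 3 passed, namely Slc1a2 with Slc1a3, Mt1 with Tsc22d3 (r = 0.79) and Apoe with Clu (r = 0.60). There 24 residuals were permuted freely although 8 group means had been removed, so those p-values can be too small.

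No gene of the 12 lists of further cell type and state markers was called in any comparison. In Egr1cKO against the floxed control, all 8 of 8 oligodendrocyte genes were below 0 with a median of -0.22, 7 of 8 microglia genes were above 0 with a median of 0.21, and all 4 ependymal genes were below 0 with a median of -0.57. Of the choroid plexus genes 8 of 9 were below 0 with a median of -0.40. Fibroblast genes had 4 of 5 above 0 with a median of 0.66, and 3 of the 5 passed an unadjusted 0.05 threshold. Their summed level ran from 32.9 to 79.2 CPM in Egr1cKO and from 39.1 to 54.7 CPM in the floxed control. The summed level of the 8 oligodendrocyte genes ran from 3427 to 4967 CPM in Egr1cKO and from 4262 to 6260 CPM in the floxed control. The 30 other astrocyte genes had a median of 0.01, with 15 above and 15 below. Endothelial genes, which border the endfeet where Aqp4 sits, had 5 of 6 above 0 with a median of 0.12, and their sum ran from 185 to 210 CPM in Egr1cKO and from 154 to 196 CPM in the floxed control. The part of these lists in the difference of Aqp4 was not tested.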

How the data were processed

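Raw counts per gene were deposited by the authors for 24 mice. They came from non-stranded libraries of polyA RNA whose reads, sequenced from both ends, were trimmed by Trim Galore and then aligned to GRCm38 (mm10) and counted by STAR. The submitters' processing notes give Trim Galore 3.8.2 and STAR 2.7.9, which differ from the versions in the paper's methods, and the annotation used for counting is not given in the sources used here. Symbols, positions and exonic lengths were taken from GENCODE M21 on GRCm38, which named 36493 of 36605 genes.

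The 32 genes, their roles, the 12 lists of further markers and the 13 gene pairs were chosen with earlier results of these data known. Counts were fitted with the quasi-likelihood test of edgeR 4.0.16 (limma 3.58.1, R 4.3.3) over all 24 mice, with 4 genotype means and sex as terms, or 8 group means for the change of the sex difference, TMM scaling and a filter on low counts (minimum count 10). P-values were adjusted over 19742 genes. Log2 CPM used a prior count of 2. DESeq2 1.42.0, its size factors, no filter on low counts, a replicate block, no sex term, only the mice compared, the exclusion of mice with Ttr above 100 CPM and of each mouse in turn, and a length index covariate added after the data were seen were the alternatives. Simulated counts were used to check that the fits recover known changes. Replicates are separate mice, and no 2 libraries of a group agreed within sampling noise. Precision is limited by 6 mice per genotype more than by depth, except for Mt2 and in part for Cbs. Full values are given for genes called, with an unadjusted p under 0.01, with the 3 largest or smallest SDs, and for Gfap, Aqp4, Aldh1l1, Slc1a2, Slc1a3, Mt1, Mt2, Mt3, Apoe and Clu. One gene among those most like the members is not reported here.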

Additional observations from a re-analysis of the deposited data

Results flagged for a closer look

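In each genotype the highest and lowest of the 6 mice were compared with the rest by Dixon's ratio for each of the 32 genes. Of 128 groups 7 had a mouse that stood apart, and chance flags about 1 group in 20. The groups mix both sexes. Gjb6 was 67.4 CPM and Pla2g7 125 CPM in female Cre control replicate 2, the next values being 49.6 and 111 CPM. Ndrg2 was 569 CPM and Clu 794 CPM in male wild type replicate 2, with the next values at 633 and 824 CPM. Apoe was 1175 CPM in male Cre control replicate 2, with the next at 1475 CPM, and this mouse also had the highest length index, 0.25. Slc4a4 was 169 CPM in male Egr1cKO replicate 3, with the next at 242 CPM, and this was the only Egr1cKO mouse with a length index below 0, at -0.13. Sox9 was 25.6 CPM in female Egr1cKO replicate 1, with the next at 33.4 CPM.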

How the results depend on the processing

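Aqp4 between Egr1cKO and the floxed control was called under all 32 alternatives, with log2 fold changes from 0.60 to 0.88, and against the other 18 mice under all 31, from 0.44 to 0.65. With the replicate block, which no label ties to a shared litter or day, it was 0.82 and 0.59, and the block changed no call of a member. Same-numbered mice of different groups had a mean correlation of deviations of -0.0025, so numbers do not pair mice. With no filter on low counts, 3 members were called between Egr1cKO and the floxed control (Aqp4, Gja1 and Mt1), 3 between Egr1cKO and the Cre control, 4 between the Cre control and wild type and 5 in the interaction, beside 803, 794, 175 and 1173 of all genes (6, 1, 0 and 1 with the filter). The cause was not tested. With the length index as a covariate 1 member, Aqp4, was called between the Cre control and wild type, and it was the only one of all genes. Aqp4 between the floxed control and wild type turned to 0.0333. Leaving out each mouse in turn gave 0 to 1 called between Egr1cKO and the Cre control, 0 to 4 in the interaction and 1 to 2 against the other 18 mice, and the fits with the highest of these counts called 983, 1438 and 253 genes in all. The median r between members moved to 0.31 after a fit on the length index, and stayed between 0.16 and 0.24 under the others. Of the 13 pairs, 1 passed within the 12 mice without the floxed allele, 3 after removal of the group means and 8 after a fit on the length index. Within the 12 floxed mice the 6 pairs that passed over all mice did so by Pearson's r, except Gfap with Aqp4. By rho only Glul with Tsc22d3 passed there. Counting error was large beside the SD within groups for Mt2 (0.40 beside 0.53 in log2) and in part for Cbs (0.05 beside 0.08).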
